A study of Homo sapiens with 402 samples.

Results

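The 10 keratin genes described here were taken by name as 3 classes: the basal keratins KRT5, KRT14 and KRT15, the stress keratins KRT6A, KRT6B, KRT16 and KRT17, and the simple keratins KRT8, KRT18 and KRT19. They were 10 of the 34718 gene symbols in the files of the second sequencing run, and 9 of them were among the 15081 symbols of the first run, which did not list KRT19. The RNA came from MCF10A, a non-tumorigenic human breast epithelial cell line grown as 1 line at a single passage, exposed for 48 h to 1 of 21 chemicals at 0.025, 0.25, 2.5 or 25 µM, or to the solvent alone. No genotype differed between groups, and all libraries share this cell line, the plate format and the exposure time. The labels give 4 biological replicates per dose and do not say how the cultures were separated, so p-values measure the spread between these wells.

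The libraries fall on 5 plates, and each dosed group was compared with the solvent wells of its own plate. Arsenic, cadmium, copper, lead and mercury shared plate 3153-AT with 15 water controls. BPA, BPF, BPS, MPB and PPB shared plate 3206-AT with 15 DMSO controls. On plate 3240-AT phenanthrene, PFOS, PFNA and PFDA had 12 DMSO controls and PFOA had 4 water controls. Thiram, PCB187, PCB153, DCP_25 and DCB_14 were on plate 3284-AT, which had 15 DMSO controls. DDE, labelled as dissolved in DMSO, was on plate 2250-AT of the first run, and the 8 controls that carry its plate barcode are labelled as water and as plate 3153-AT. Of 402 libraries 401 were used, 332 dosed and 69 controls, and 81 of the 84 dose groups held 4 libraries. MPB and PPB at 0.025 µM held 3, and cadmium at 25 µM held 2 after a library that carries the barcode of plate 3284-AT was set aside.

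Keratins are the intermediate filament proteins of epithelial cells, and each filament is built from pairs of a type I and a type II chain. KRT5 with KRT14 or KRT15 makes the network of basal cells, which in the breast lie against the basement membrane. KRT8 with KRT18 or KRT19 makes that of luminal, secretory cells. KRT6A and KRT6B (type II) and KRT16 and KRT17 (type I) are known for their induction in wounded, stressed or proliferating epithelium. Desmosomes and hemidesmosomes anchor these filaments to neighbouring cells and to the basement membrane.

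The type II genes lie on chromosome 12 and the type I genes on chromosome 17, except KRT18, a type I gene beside KRT8. In GRCh38 with GENCODE v29, KRT5 spans 12:52514575-52520687, KRT6A 12:52487174-52493257 and KRT6B 12:52446651-52452126, all on the minus strand. KRT15 spans 17:41513743-41522529, KRT19 17:41523617-41528308, KRT14 17:41582279-41586921, KRT16 17:41609778-41615899 and KRT17 17:41619441-41624842, also on the minus strand. KRT8 (12:52897187-52949954, minus strand) and KRT18 (12:52948871-52952901, plus strand) overlap, and how the counting treated strand is not given in the sources used here.

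Several of these genes are near copies, which bears on how reads were shared between them. KRT6A and KRT6B have the same base at 1650 of 1692 coding positions (97.5%). Coding bases 601 to 750 of each are shown because they hold a cluster of 10 differences, in capitals, on which a read can be told apart:
KRT6A: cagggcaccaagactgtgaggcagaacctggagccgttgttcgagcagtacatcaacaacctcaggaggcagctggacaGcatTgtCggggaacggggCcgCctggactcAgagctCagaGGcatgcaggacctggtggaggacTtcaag
KRT6B: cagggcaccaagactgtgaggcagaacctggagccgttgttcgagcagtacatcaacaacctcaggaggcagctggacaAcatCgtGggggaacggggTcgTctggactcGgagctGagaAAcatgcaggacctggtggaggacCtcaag

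Of the 50-base windows of the coding sequence, 62.6% of those of KRT6B and 52.8% of those of KRT6A also occur in another keratin gene. KRT6B was low beside KRT6A in every control group, so its counts are uncertain. KRT14 and KRT16 share 12.8% of their 50-base windows, whereas KRT14 and KRT17 share 1.02% and no 100-base window. KRT8 and KRT18 share 45.6% and 38.8% of their windows with other keratin genes, most often the pseudogenes KRT8P3 and KRT18P11. KRT5 (5.75%) and KRT15 (1.29%) are the most distinct of the members that were tested.

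Levels are given as CPM, a gene's count over its library's total, with totals scaled by the trimmed mean of M-values, and between genes as CPM per kb of transcript. Control libraries held from 1.932 to 23.92 M counts, and the 25 µM groups with keratin calls held from 1.434 M counts (cadmium) to 21.89 M counts (copper). On plates 3153-AT and 3284-AT, the controls with the last numbers were shallow (medians of 3.171 M and 3.181 M counts) beside those with the first numbers (20.9 M and 17.87 M counts). The 5 epithelial marker genes, EPCAM and CDH1 among them, were above 1 CPM in every control group. Leukocyte markers summed to at most 2.996 CPM in any control library. Of the luminal identity genes, ESR1 was below 1 CPM and PGR was at 0 in the controls of the second run. There, 5 to 7 of 13 listed luminal genes and 10 or 11 of 12 basal identity genes averaged above 1 CPM. Over all control groups CD24 had means of 62.59 to 201 CPM, GATA3 of 19 to 103.3 and FOXA1 of 7.032 to 42.57. TP63, which defines basal cells, was at 2.213 to 14 CPM.

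In the control wells KRT6A and KRT5 led among the 10 genes, and KRT19 was close to 0. Outside these 10, the hair keratin KRT81 had means of 10100 to 15560 CPM and KRT7, another simple keratin, 3886 to 4667 CPM in the control groups. On the metal plate KRT6A stood at 733.3 ± 60.13 CPM per kb (SD, n = 15), KRT5 at 469.8 ± 55.99, KRT18 at 411.4 ± 36.89, KRT17 at 291.4 ± 32.43 and KRT8 at 252.3 ± 30.73. KRT14, the usual partner of KRT5, followed at 63.18 ± 14.1 CPM per kb. KRT15 (8.55 ± 4.17), KRT16 (7.07 ± 3.47) and KRT6B (4.02 ± 2.38) lay within each other's spread. KRT5 and KRT18, and KRT17 and KRT8, were neighbours whose means differed by about their SD or little more. KRT19, a simple keratin of luminal cells, had no count in 85 of 93, 86 of 93, 84 of 96 and 88 of 95 libraries of plates 3153-AT, 3206-AT, 3240-AT and 3284-AT. It passed the filter on low counts on no plate, and 9 of 10 members were tested on all 5.

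**Figure D1:**
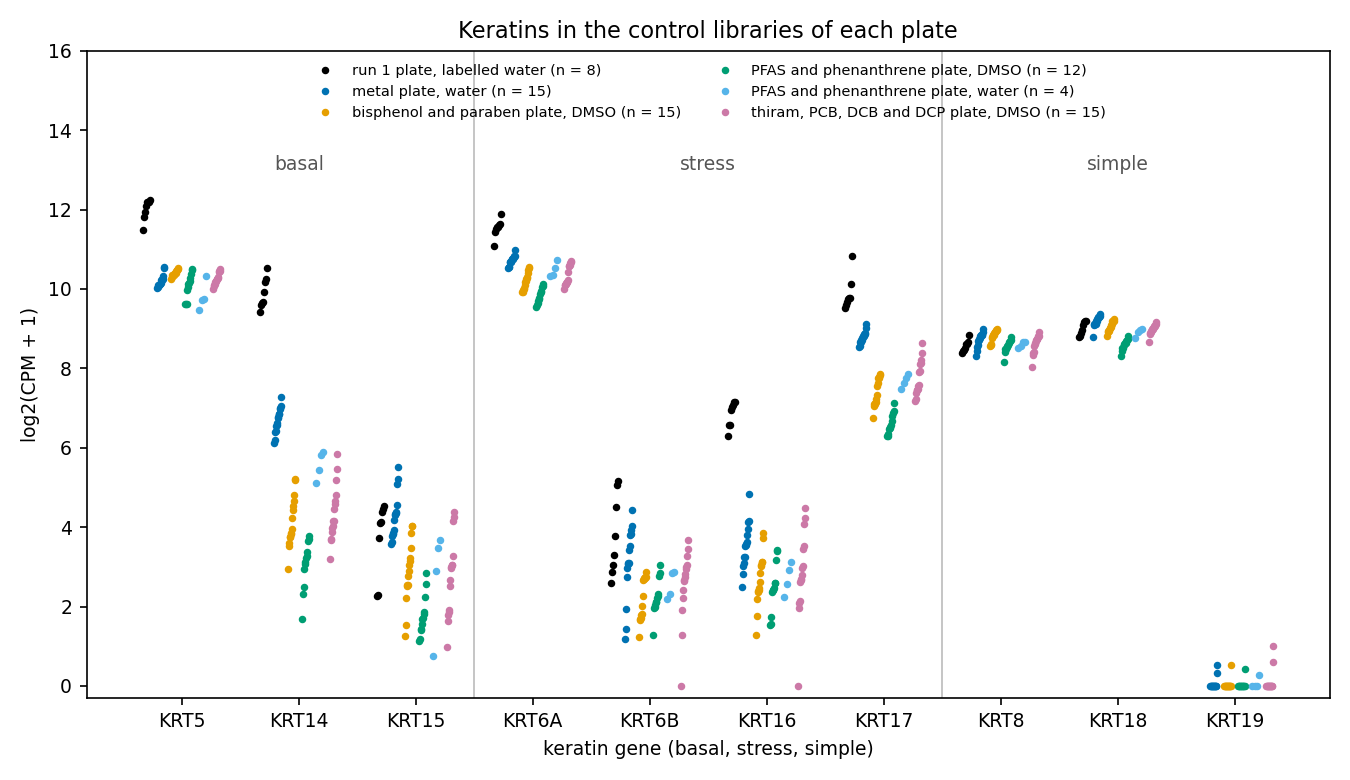
Keratin level in the solvent controls as log2(CPM + 1), not scaled by length, by gene and class; points are libraries, coloured by plate and solvent and sorted within each group. KRT14 spans the widest range between plates, with means of 7.955 to 985.5 CPM, and KRT19 lies at or near 0.

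KRT14 had the widest range of control means among the 9 tested members. The mean was 985.5 ± 269.5 CPM (SD, n = 8) on plate 2250-AT, 105 ± 23.44 on 3153-AT, 22.61 ± 13.24 on 3284-AT, 18.5 ± 8.956 on 3206-AT and 7.955 ± 3.276 in the DMSO wells of 3240-AT. The lowest library of plate 2250-AT (688.6) was above the highest of 3153-AT (153.5). Plate 2250-AT was the only plate of the first run, so run and plate cannot be told apart there. The DMSO wells of 3206-AT, 3240-AT and 3284-AT share run and solvent and differ by plate. Between 3153-AT and those DMSO wells, plate and solvent differ together and cannot be told apart. Only plate 3240-AT held both solvents.

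There the 4 water wells had 33.3, 42.51, 55.41 and 58.84 CPM of KRT14 and the 12 DMSO wells 2.218 to 12.81, with no overlap. The difference was 2.45 on the log2 scale (SE 0.277), with an adjusted p of 5.492e-11 in edgeR's quasi-likelihood test with Benjamini-Hochberg adjustment over all genes, as for every adjusted p below. KRT17 (1.05, adjusted p = 8.354e-07) and KRT6A (0.65, adjusted p = 5.685e-05) were also higher in water, so 3 of 9 members differed where 4.08% of all genes did. KRT15 was higher by 1.10 with an adjusted p of 0.0659, and KRT5 differed by -0.27 with an adjusted p of 0.518.

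Within a plate and solvent, the first- and last-numbered controls differed in 14 of 36 member tests, beside 8.33% of all genes over the same 4 plates. KRT14 was lower in the first-numbered controls of 3153-AT by 0.42, of 3206-AT by 0.89 and of 3284-AT by 1.16 on the log2 scale. KRT15 was lower there by 0.92 on 3153-AT and by 1.51 on 3284-AT, and KRT17 by 0.63 on 3206-AT and by 0.83 on 3284-AT. KRT8 was called on no plate, and no member was called on 3240-AT. Depth changes with the same numbers, and its part in these differences was not tested. Values within each number range are therefore given below for each named call at 25, 2.5 or 0.25 µM that did not pass in both: the low-numbered set joins dosed replicates 1 and 2 with the first controls, and the high-numbered set joins replicates 3 and 4 with the last.

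At 25 µM, 32 of 189 member tests passed an adjusted p of 0.05, 12 higher and 20 lower, beside 4.85% of all gene tests at that dose (2.61% higher and 2.24% lower). They fell in 8 of 21 chemicals. The median log2 fold change of the members was -0.15. The basal class had 12 of 63 tests called, 3 higher and 9 lower. The stress class had 11 of 84, 8 higher and 3 lower, and the simple class 9 of 42, 1 higher and 8 lower. By gene, KRT17 had the most rises (4 higher, 1 lower). KRT15 and KRT18 only fell among the called tests (4 each), KRT8 fell in 4 and rose in 1, and KRT6B was called nowhere. In RNA from whole wells, fewer cells of a type and less RNA per cell cannot be told apart.

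**Figure D2:**
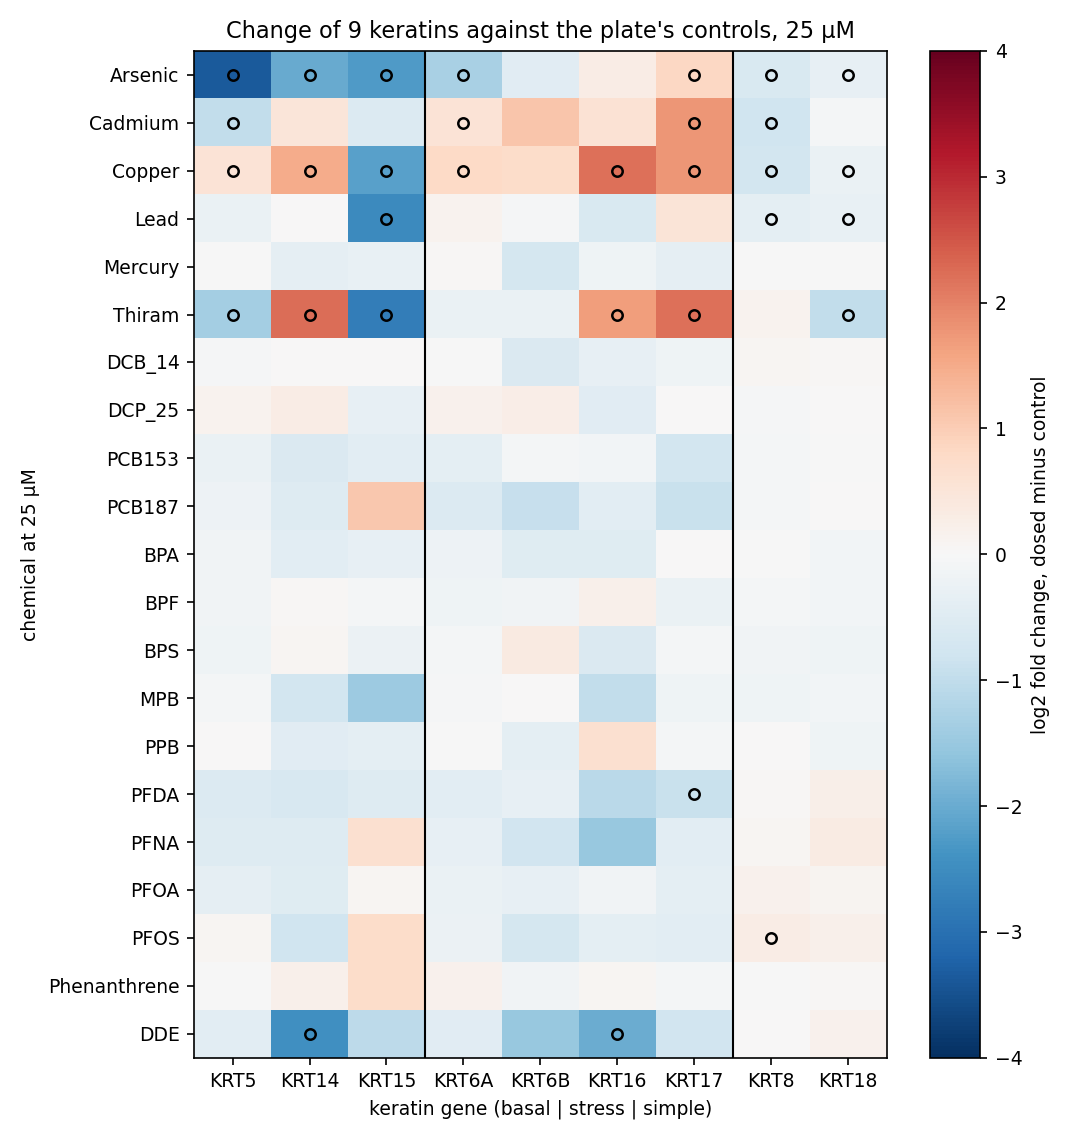
Log2 fold change of 9 keratins (columns, by class) at 25 µM against the controls of the same plate, for 21 chemicals (rows); cells with a circle passed an adjusted p of 0.05. The called cells gather under arsenic, copper, thiram, cadmium and lead, with 2 for DDE and 1 each for PFDA and PFOS.

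All dosed libraries lay on the same side of the control mean for 31 of the 32 calls, and for 20 of them the dosed and control ranges did not overlap. These tests had already passed, so such agreement is largely built in, and the shares among all called genes are not given here. Of 26 calls that could be fitted in both number ranges, 15 passed in both, 8 in the low-numbered set alone and 3 in the high-numbered set alone. With the number range as a term in the model, all 30 calls that could be fitted passed.

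Arsenic changed 7 of 9 members at 25 µM, 6 of them lower, while 41.4% of all genes passed there and 18.2% were lower. KRT5 read 95.47, 101.2, 144.7 and 122.8 CPM in the 4 arsenic libraries against 1046 to 1511 (median 1126) in the 15 water controls. All 4 were far below the lowest control, and the change was -3.35 on the log2 scale (SE 0.148, adjusted p = 1.178e-36). Its partner KRT14 read 20.89, 12.08, 34.85 and 31.75 CPM against 68.83 to 153.5 (median 107.1) in controls, a change of -2.02 (SE 0.278, adjusted p = 1.252e-09). KRT15 read 2.143, 5.145, 3.641 and 4.148 CPM against 10.93 to 44.81 (median 18.68), a change of -2.25 (SE 0.554, adjusted p = 4.275e-04). Thus each basal keratin lay below the whole control range.

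The stress keratins split under arsenic. KRT6A read 695.3, 636.3, 601.7 and 816.9 CPM against 1474 to 2008 (median 1712) in controls, a change of -1.30 (SE 0.0999, adjusted p = 8.301e-21). KRT17 moved the other way, reading 535.4, 672.5, 960.9 and 995.4 CPM against 368.4 to 554 (median 442.6). It rose by 0.84 (SE 0.172, adjusted p = 2.431e-05), with replicate 1 inside the control range. KRT16 (8.453 to 18.67 CPM) and KRT6B (1.821 to 11.49 CPM) stayed within the control range and did not pass.

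The simple keratins fell less under arsenic. KRT8 read 272.4, 282, 263.9 and 295.1 CPM against 316.5 to 507.4 (median 433.4), below every control, a change of -0.62 (SE 0.104, adjusted p = 3.612e-07). KRT18 read 461.8, 432.8, 469.5 and 496.6 CPM against 443.7 to 654.7 (median 588.6), a change of -0.33 (SE 0.073, adjusted p = 7.339e-05). Within the high-numbered set the KRT18 change was -0.08 with an adjusted p of 0.53. The median change of all genes under arsenic was 0.0013, and 0.127 or 0.154 with the scalings of RLE or DESeq2.

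Copper changed 8 of 9 members at 25 µM, beside 5.09% of all genes. Of these members 5 were higher, beside 2.88% of all genes, the most rises of any chemical at this dose. KRT17 read 2346, 2329, 724.2 and 644.5 CPM against the same controls (368.4 to 554), all above them. It rose by 1.77 (SE 0.163, adjusted p = 5.075e-15), by 2.42 in the low-numbered set and by 0.60 (adjusted p = 8.037e-04) in the high-numbered set. KRT16 read 93.35, 80.13, 15.6 and 10.02 CPM against 4.583 to 27.65 (median 10.78), so replicates 1 and 2 were above the controls and replicates 3 and 4 within them. Its change of 2.20 (SE 0.255, adjusted p = 1.308e-10) was 3.12 in the low-numbered set and -0.22 (adjusted p = 0.92) in the high-numbered set.

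The same division ran through the other rising members under copper. KRT14 read 411.5, 406.7, 186.8 and 129.8 CPM against 68.83 to 153.5, a rise of 1.47 (SE 0.195, adjusted p = 1.282e-08), of 2.16 in the low-numbered set and of 0.40 (adjusted p = 0.285) in the high-numbered set. KRT6A read 3596, 3864, 2138 and 2212 CPM against 1474 to 2008, above every control. It rose by 0.80 (SE 0.086, adjusted p = 5.79e-12), and by 0.39 (adjusted p = 0.0115) in the high-numbered set. KRT5 read 1968, 2118, 1541 and 1348 CPM against 1046 to 1511, a rise of 0.55 (SE 0.110, adjusted p = 2.06e-04), and of 0.15 (adjusted p = 0.679) in the high-numbered set. KRT6B read 34.41, 16.11, 3.374 and 11.8 CPM and did not pass.

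The other 3 called members were lower under copper. KRT15 read 4.656, 3.66, 6.112 and 1.002 CPM against 10.93 to 44.81, a change of -2.17 (SE 0.466, adjusted p = 8.359e-04), opposite to the other basal keratins. KRT8 read 277.5, 269.3, 261.1 and 211.5 CPM against 316.5 to 507.4, a change of -0.75 (SE 0.104, adjusted p = 6.534e-08). Both lay below every control in all 4 libraries. KRT18 read 498.5, 497.8, 479.6 and 487.2 CPM, inside the control range, a change of -0.26 (SE 0.072, adjusted p = 0.017). In the high-numbered set it was -0.17 (adjusted p = 0.485), and the KRT18 call was lost without replicate 2, 3 or 4.

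Thiram, a dithiocarbamate fungicide, changed 6 of 9 members at 25 µM, beside 25.9% of all genes. KRT17 read 1004, 818.1, 1233 and 836.3 CPM against 144.2 to 397.6 (median 189.8) in the 15 DMSO controls, all above them, a rise of 2.19 (SE 0.316, adjusted p = 9.272e-09). KRT14 read 63.27, 55.15, 92.75 and 161.4 CPM against 8.241 to 56.37 (median 16.9), with replicate 2 just inside the control range, a rise of 2.22 (SE 0.415, adjusted p = 7.447e-06). KRT16 read 21.69, 14.58, 23.04 and 25.66 CPM against 0 to 21.4 (median 5.939), a rise of 1.66 (SE 0.530, adjusted p = 0.01196), with an adjusted p of 0.36 in the high-numbered set. These are type I chains, but the type I members KRT15 and KRT18 were called lower. None of the type II members KRT5, KRT6A, KRT6B and KRT8 was called higher.

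KRT5 read 650.6, 519.2, 333.2 and 355.1 CPM under thiram against 1024 to 1439 (median 1209), below every control. The change was -1.37 (SE 0.150, adjusted p = 2.967e-13), -0.97 in the low-numbered and -1.96 in the high-numbered set. KRT18 read 295.9, 335.8, 189 and 170.5 CPM against 403.6 to 577.5 (median 505), a level 0.5 times that of the controls (SE 0.089 on the log2 scale, adjusted p = 1.256e-17). KRT8, its partner, read 523.9, 497.4, 422.8 and 303.8 CPM against 259 to 479.1, a change of 0.15 with an adjusted p of 0.271. KRT15 read 0, 2.108, 0 and 0 CPM against 0.9708 to 19.97. Its call (adjusted p = 0.04499) was lost without replicate 1, 3 or 4, and the change in the low-numbered set had an adjusted p of 0.339. KRT6A changed by -0.26 with an adjusted p of 0.422, by 0.21 (adjusted p = 0.0364) in the low-numbered set and by -0.85 (adjusted p = 2.189e-10) in the high-numbered set.

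Cadmium changed 4 of 9 members at 25 µM, beside 11% of all genes, on 2 libraries of 1.434 and 1.455 M counts that both belong to the low-numbered set. The median change of all genes there was -0.61, and it was -0.54 with RLE scaling and 0.07 with DESeq2, so the values below are to be read against that median. KRT17 read 1941 and 1084 CPM, both above every control, a rise of 1.78 (SE 0.238, adjusted p = 4.824e-09). KRT6A read 2163 and 2744 CPM, also above every control, a rise of 0.53 (SE 0.123, adjusted p = 9.562e-04). KRT5 read 704.3 and 497 CPM and KRT8 313.8 and 175 CPM, below every control, with changes of -0.98 (adjusted p = 6.441e-05) and -0.80 (adjusted p = 1.472e-03). All 4 kept their direction and call with RLE and DESeq2, where KRT5 was -0.82 and -0.83. Without replicate 2 the calls for KRT6A, KRT5 and KRT8 were lost. The library set aside held 1283 CPM of KRT5, 1709 of KRT6A, 182.2 of KRT17 and 6.228 of KRT14 by total count, without the scaling of the controls. Beside the DMSO controls of plate 3284-AT, KRT5 and KRT17 were within range, KRT14 below it and KRT6A above it (1018 to 1676). Beside the water controls of 3153-AT, KRT5 and KRT6A were within range (1474 to 2008 for KRT6A), and KRT17 and KRT14 below it.

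Lead changed 3 of 9 members at 25 µM, all lower, beside 3.85% of all genes (1.7% lower). KRT15 read 1.605, 0.697, 6.48 and 3.311 CPM, below every control, a change of -2.53 (SE 0.490, adjusted p = 2.383e-04). KRT8 read 278.1, 312.5, 356.9 and 348.5 CPM, a change of -0.40 (SE 0.101, adjusted p = 7.878e-03), which was lost without replicate 1 and was -0.21 (adjusted p = 0.468) in the high-numbered set. KRT18 read 451.9, 500.5, 449.3 and 497.1 CPM, a change of -0.31 (SE 0.072, adjusted p = 3.927e-03), and of -0.21 (adjusted p = 0.201) in the high-numbered set. KRT5 and KRT17 did not pass but their lead libraries fell into pairs by number. KRT5 read 707.3, 727.2, 1315 and 1241 CPM, and KRT17 433.4, 418, 722.2 and 974.9 CPM. In the low-numbered set KRT5 differed from its controls by -0.61 (adjusted p = 1.01e-10), and in the high-numbered set KRT17 differed by 0.90 (adjusted p = 8.844e-08). Under mercury, where 0.0617% of all genes passed, no member did, and KRT5 read 1105, 1018, 1337 and 1278 CPM.

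**Figure D3:**
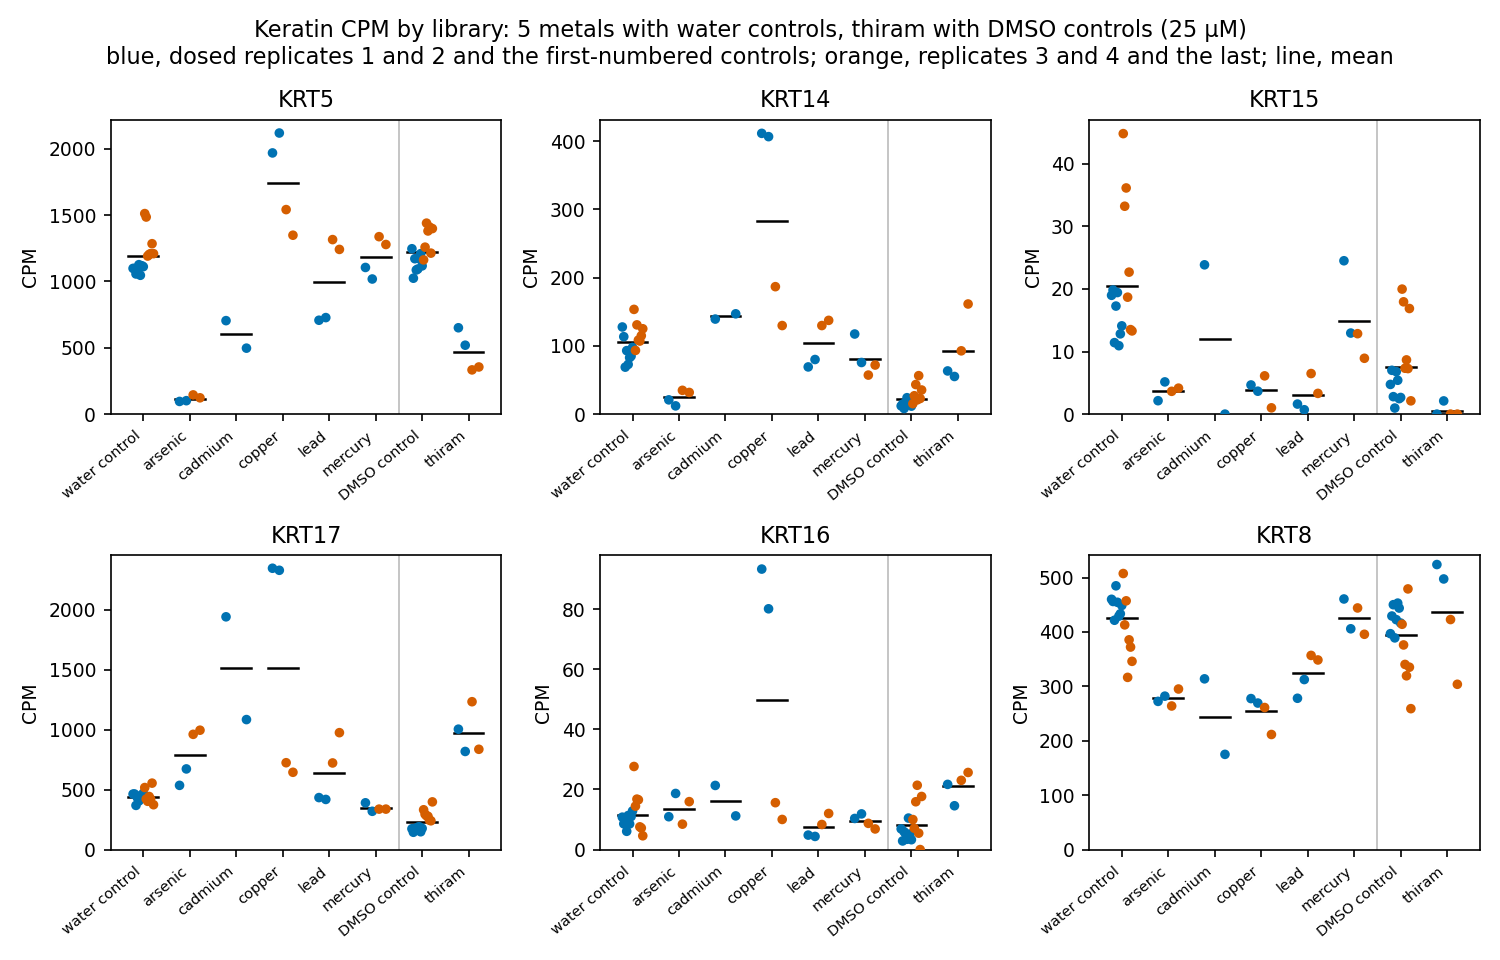
CPM of 6 keratins in each library of the metals at 25 µM with their water controls, and of thiram with its DMSO controls; colours separate the low-numbered from the high-numbered libraries, and bars are means. KRT5 under arsenic lies below all controls, and under copper the low-numbered libraries of KRT14, KRT16 and KRT17 stand above the high-numbered ones.

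The perfluorinated acids gave 1 call each for PFDA and PFOS at 25 µM, where 0.0668% of all genes passed under either chemical. KRT17 read 45.48, 62.47, 58.23 and 45.9 CPM under PFDA against 77.05 to 139 (median 92.94) in the DMSO controls, below all of them. The change was -0.89 (SE 0.182, adjusted p = 8.878e-03), and the call was lost without replicate 4. In the low-numbered set the change was -0.72 with an adjusted p of 0.0614. KRT8 read 451.7, 437.2, 474.2 and 506 CPM under PFOS against 285.6 to 442 (median 378.6). The rise of 0.31 (SE 0.071, adjusted p = 0.04927) was lost without replicate 2, 3 or 4, and was 0.36 with an adjusted p of 0.604 in the low-numbered set.

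DDE, the lasting breakdown product of the insecticide DDT, gave 2 calls of 9 at 25 µM, beside 7.77% of all genes. KRT14 read 467.4, 113.7, 68.02 and 69.07 CPM against 688.6 to 1472 (median 889.9) in the 8 controls, below all of them, a change of -2.44 (SE 0.726, adjusted p = 0.04301). KRT16 read 67.4, 20.1, 16.88 and 9.572 CPM against 78.15 to 141.3 (median 126.6), a change of -1.98 (SE 0.612, adjusted p = 0.04757). Both calls were lost without replicate 2 or without replicate 3. In both genes replicate 1 was well above the other libraries of that dose. The solvent named for DDE and that named for its controls differ, so dose and solvent cannot be told apart on this plate.

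Each DDE dose held 1 such library, and these 4 were numbered 1, 8, 9 and 16 of the 16 DDE libraries. KRT14 read 467.4 to 1125 CPM (median 984.8) in those 4 and 68.02 to 238.7 (median 127.8) in the other 12. KRT16 read 67.4 to 140.5 CPM against 9.572 to 58.26, and KRT5 3880 to 4352 CPM against 2457 to 3693. The ranges of the 4 and the 12 libraries did not overlap for KRT14, KRT16, KRT5, KRT17 (828 to 936.2 and 375.9 to 699.4 CPM) or KRT6A (2879 to 3258 and 1877 to 2480 CPM). KRT18 also did not overlap but was lower in the 4, at 470.4 to 530 CPM against 534.8 to 659.9. The share of all genes whose ranges part in this way is not given here. The 4 were picked out by their KRT14 and KRT16 values, so the gap in those genes follows from that choice. Among the controls, which are numbered 9 to 16, those numbered 9 and 16 differed in the opposite direction for KRT5, at 2853 and 3605 CPM against 3891 to 4871 in the other 6. For KRT17 they differed in the same direction as the DDE libraries, at 1119 and 1815 CPM against 738.2 to 876.9. For KRT14 (1153 and 1472 CPM against 688.6 to 1208), KRT16 and KRT6A the ranges overlapped. The labels do not say what these numbers stand for. With the dosed and control libraries of these numbers left out, a choice made after the values were seen, the member calls at 0.025, 0.25, 2.5 and 25 µM went from 0, 0, 0 and 2 to 6, 7, 5 and 7, and the KRT14 change at 25 µM went from -2.44 to -3.36. KRT14 then differed by -2.41 at 0.025 µM, the lowest dose. The libraries left out were picked by values of the same genes, so these counts and changes are partly set by that choice. The share of all genes called without them is not given here, so the counts do not measure a keratin response to DDE.

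**Figure D4:**
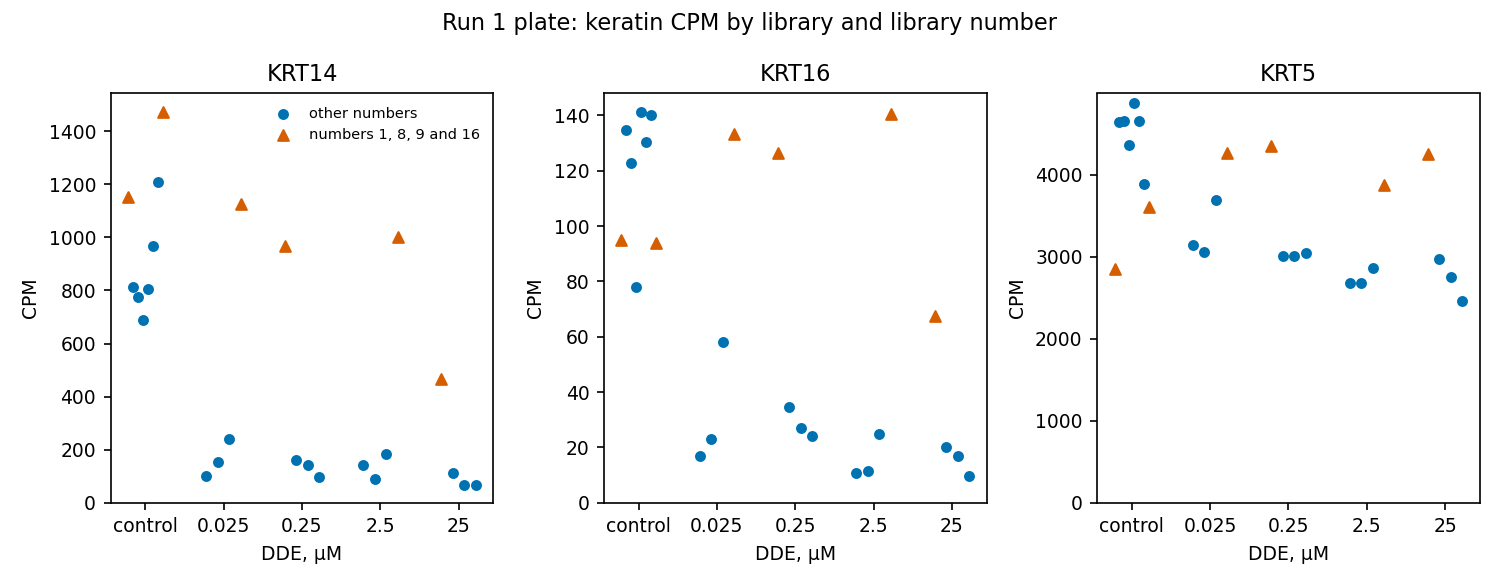
CPM of KRT14, KRT16 and KRT5 in the 8 controls and 16 DDE libraries of plate 2250-AT, by dose, with triangles for the libraries numbered 1, 8, 9 and 16. For KRT14 the DDE triangles lie between 467.4 and 1125 CPM and the other DDE libraries between 68.02 and 238.7.

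In the other 13 chemicals no member passed at 25 µM, and the smallest adjusted p was 0.117 (KRT15). KRT8 had the narrowest range of changes among them, -0.18 to 0.18 with SEs of 0.070 to 0.099. KRT5 ranged from -0.50 (PFNA) to 0.15 (DCP_25), KRT6A from -0.56 to 0.17 and KRT18 from -0.17 to 0.34. KRT14 ranged from -0.72 to 0.30 and KRT17 from -0.89 (PCB187) to 0.01. The low keratins were wider, with KRT15 from -1.45 to 1.08, KRT16 from -1.52 to 0.63 and KRT6B from -0.93 to 0.36.

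At 2.5 µM, 8 of 189 member tests passed, 1 higher and 7 lower, beside 0.412% of all gene tests (0.188% higher and 0.223% lower). All 8 were under metals. KRT15 was lower under arsenic (-2.68, adjusted p = 1.306e-03), copper (-2.83, adjusted p = 4.638e-05) and lead (-2.15, adjusted p = 7.544e-03). KRT8 was lower under copper by 0.78 (SE 0.104, adjusted p = 6.12e-08), at 249 ± 7.44 CPM (SD, n = 4) and below every control, and under arsenic by 0.50 (adjusted p = 1.141e-03). Arsenic also lowered KRT14 (-1.30, adjusted p = 4.686e-04) and KRT16 (-1.63, adjusted p = 0.0445), and copper raised KRT6A (0.32, adjusted p = 0.0243, and 0.27 with an adjusted p of 0.143 in the high-numbered set). KRT5 under arsenic, the largest change at 25 µM in these 189 tests, was 968.9 ± 187.2 CPM at 2.5 µM, a change of -0.30 with an adjusted p of 0.224.

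At 0.25 µM, 4 tests passed, beside 0.0748% of all gene tests. KRT15 was lower under arsenic (-2.09, adjusted p = 0.0492) and copper (-2.34, adjusted p = 0.0134). In the low-numbered set the arsenic difference was -1.27 with an adjusted p of 0.0698. The other calls were KRT16 (1.78) and KRT17 (1.44) under PCB153, and both rest on replicate 3. KRT17 read 115.8, 125.9, 1820 and 254.2 CPM and KRT16 7.624, 7.561, 70.85 and 4.486 CPM. Without replicate 3 the KRT17 difference was -0.36, and the call was lost. In the low-numbered set KRT17 differed by -0.47 (adjusted p = 0.177) and KRT16 by 0.51 (adjusted p = 0.98). At 0.025 µM no member passed in edgeR and 2 passed in DESeq2, beside 0.0104% of all gene tests in edgeR. KRT15 there was already at 5.145 ± 4.494 CPM under arsenic and 6.587 ± 2.484 CPM under copper, against 20.47 ± 9.979 in controls. Those differences of -1.87 and -1.52 had adjusted p of 0.365 and 0.285.

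The slope over the 4 doses uses no controls and was called for 21 of 189 members, 9 rising and 12 falling, beside 3.12% of all gene tests (1.52% rising and 1.6% falling). Under arsenic KRT5 fell by 1.01 per 10-fold dose on the log2 scale (SE 0.0499, adjusted p = 3.413e-32), and KRT14 by 0.59, KRT6A by 0.45, KRT8 by 0.17 and KRT18 by 0.11, while KRT17 rose by 0.20 (adjusted p = 0.0217). Under copper KRT16 rose by 0.89, KRT14 by 0.62, KRT17 by 0.55, KRT6A by 0.22 and KRT5 by 0.17, while KRT8 fell by 0.23 and KRT18 by 0.10. Under thiram KRT17 rose by 0.77 and KRT14 by 0.73, while KRT15 fell by 0.93, KRT5 by 0.43 and KRT18 by 0.30. Under cadmium KRT17 rose by 0.46, and KRT5 fell by 0.38 and KRT8 by 0.24. KRT15 had no called slope under arsenic or copper, where it was low at each dose.

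With the replicate number as a block the count of called slopes was 42. The share of all genes called with the block is not given here, so this count cannot be read as a result about the keratins. Only for copper, lead, mercury and PFOA did every same-numbered pair of libraries deviate together (r over 0.1). Copper then kept the 7 genes named above. Under lead 5 slopes passed with the block that had not passed without it: KRT15 (-0.68, adjusted p = 1.62e-06), KRT5 (-0.13), KRT8 (-0.08), KRT18 (-0.08) and KRT17 (0.09). Under mercury KRT17 passed (-0.18, adjusted p = 2.819e-05).

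**Figure D5:**
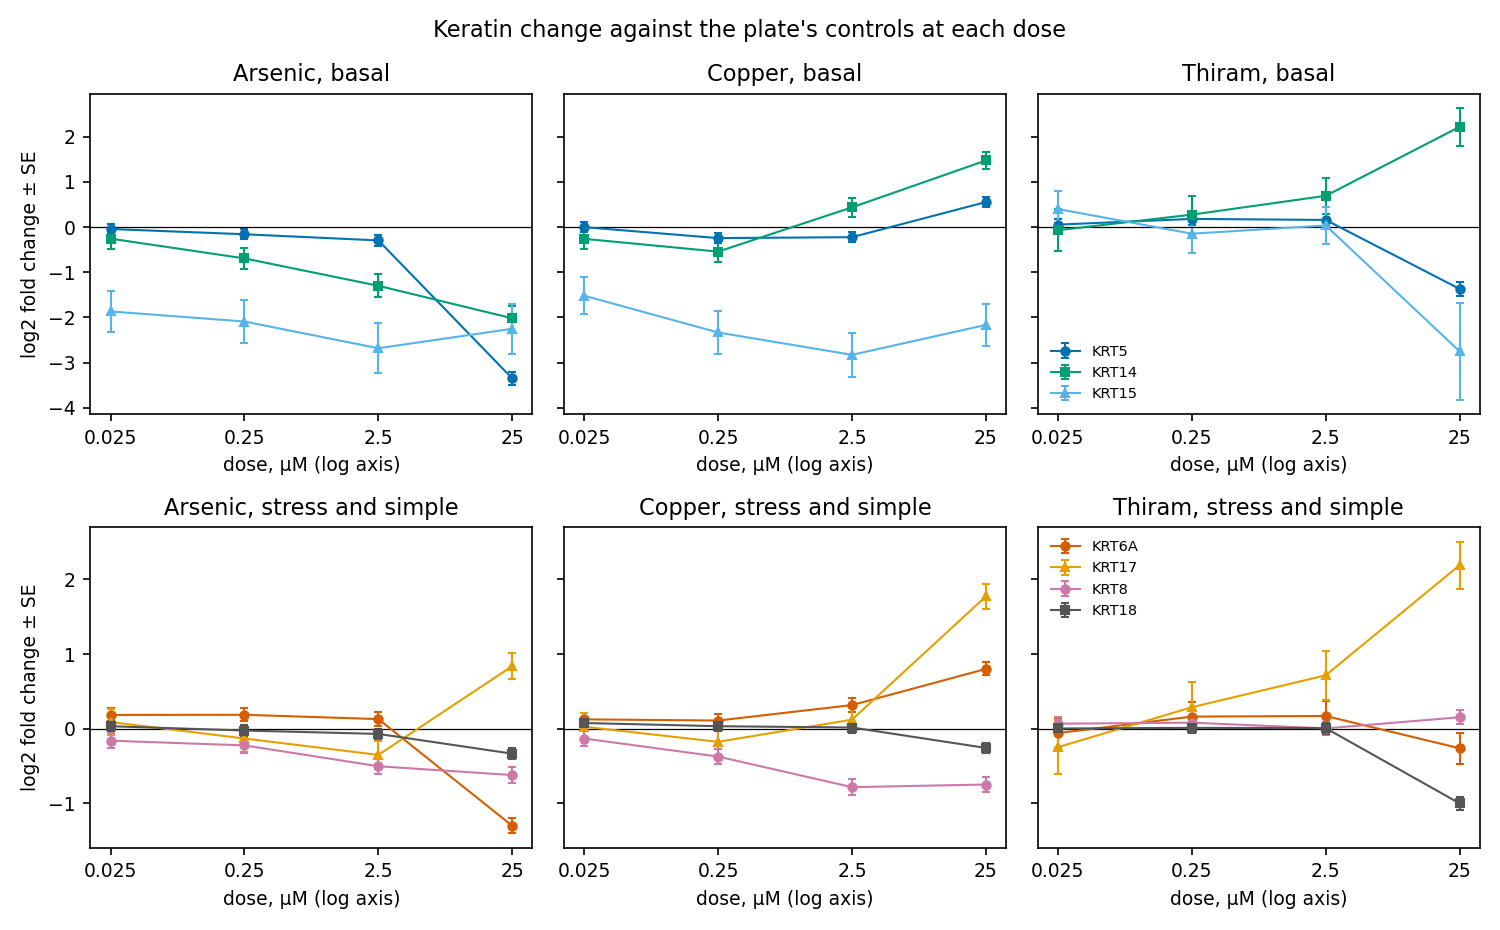
Log2 fold change ± SE against the plate's controls at 4 doses (log axis) for arsenic, copper and thiram, basal keratins above and stress and simple keratins below. KRT5 under arsenic drops between 2.5 and 25 µM, KRT14 declines over the doses, and KRT15 under arsenic and copper is low at each dose.

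The 5 metals were compared with each other at 25 µM in 10 pairs, where 41 of 90 member tests passed, beside 13.9% of all gene tests. KRT5 differed in 9 of 10 pairs, KRT17 in 8, KRT6A in 7 and KRT14 in 6, whereas KRT18 differed in 1. Arsenic and copper were the most distant for the basal pair, with arsenic lower by 3.91 for KRT5 and by 3.50 for KRT14 on the log2 scale. KRT17 was also higher under copper than under arsenic, by 0.93, although both raised it over controls. Copper against lead gave 2.80 for KRT16, 1.45 for KRT14 and 1.25 for KRT17, and KRT5 was higher under copper by 0.81. Cadmium against lead gave 1.25 for KRT17 and -0.73 for KRT5. Lead and mercury differed in KRT15 (-2.22) and KRT17 (0.88) alone.

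The balance of the classes was read as the log2 ratio of their summed CPM in each library. In the water controls of the metal plate the simple-to-basal ratio was -0.38 ± 0.25 (SD, n = 15) and in the arsenic libraries 2.39 ± 0.29 (SD, n = 4), with no overlap. The stress-to-basal ratio was 0.72 ± 0.22 and 3.38 ± 0.20. Summed basal keratin was 144.7 CPM under arsenic and 1314 CPM in controls. Copper moved the simple-to-basal ratio the other way, to -1.41 ± 0.31, below the control range. That is a difference of -1.03 from controls, which was -0.22 when means of log2(CPM + 1) replaced the sums. Under thiram the stress-to-basal ratio was 1.92 ± 0.25 against 0.30 ± 0.19 in its DMSO controls, above their range, as it was for cadmium (2.42 ± 0.23) above the water controls. These sums are set by the most abundant member of each class. KRT5 made up most of the basal sum, and KRT6A and KRT17 most of the stress sum.

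Genes of the structures that anchor keratin filaments were read from lists taken with the members. Under arsenic at 25 µM, 9 of 12 desmosome genes passed, 1 higher and 8 lower, with a median of -0.98, beside 41.4% of all genes called (18.2% lower) and an all-gene median of 0.0013. Among them were DSG3 (-3.58), PPL (-3.24), PKP2 (-2.25) and DSP (-1.62). Of 9 hemidesmosome genes 3 were higher and 4 lower under arsenic. The laminin chain LAMB3 (1.77) rose and the integrins ITGA6 (-2.00) and ITGB4 (-1.06) fell. Copper, with 5.09% of all genes called, gave 0 higher and 4 lower of 12 desmosome genes, and 4 higher of 9 hemidesmosome genes with none lower, among them LAMB3 (1.77), LAMA3 (0.75) and PLEC (0.64). Thiram, with 25.9% of all genes called, gave 4 of 11 desmosome genes lower with a median of -0.02, and LAMB3 (1.55) was higher. LAMB3 was higher under cadmium as well (3.22), against an all-gene median of -0.61. Lead, with 3.85% of all genes called, gave 5 of 12 desmosome genes lower, among them PPL (-2.08).

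Among 12 basal identity genes under arsenic 2 were higher and 6 lower, again beside 41.4% of all genes called. TP63, the transcription factor of basal epithelium, changed by -4.04, CAV1 by -2.85 and the cadherin CDH3 by -2.09. The luminal list moved both ways under arsenic, with 4 of 9 tested genes higher and 3 lower, FOXA1 by 1.73 and EHF by -2.48. Copper, with 5.09% of all genes called, lowered 3 of 9 luminal genes and raised none. Thiram, with 25.9% of all genes called, raised 3 of 8, FOXA1 by 1.88, and lowered 2, EHF (-4.035) and MUC1 (-2.309). Of 15 other keratins under arsenic 6 were called, near the share of all genes (41.4%), with 2 higher and 4 lower: KRT80 (-2.31), KRT81 (-1.73), KRT86 (-1.71) and KRT7 (-0.85). KRT10, a keratin of differentiating skin cells, was higher under thiram (1.05) and cadmium (1.54).

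Epithelial marker genes were read in the same groups. Their summed level was 158.2 to 377.5 CPM in the water controls of the metal plate, 111.8 to 201.8 under arsenic, 115.8 to 160.2 under copper and 21 to 43.94 under cadmium. Under lead it was 115.1 to 195.8 CPM. Mercury, with no keratin call at 25 µM, had 152.5 to 193.7 CPM, which overlapped the control range. Among these metals only the cadmium sum lay wholly below that range. Under DDE the sum was 254.5 to 523.1 CPM against 661.2 to 837.4 in its controls, with no overlap, and under thiram 40.37 to 109.1 against 99.72 to 211. All 5 were above 1 CPM in each of these groups. Fibroblast markers summed to 21.57 to 145.9 CPM in those controls and 11.05 to 46.18 under arsenic, and leukocyte markers to at most 3.709 CPM under arsenic. Their part in the keratin changes was not tested.

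The pattern of each leading member was compared with other genes by Pearson's r over the 84 dose groups, on group means of log2(CPM + 1) centred on the mean of the plate's dosed groups, for 10952 genes. The genes closest to KRT5 were NCL, which codes for nucleolin (r = 0.894), SFRP1, a secreted Wnt antagonist (0.888), and PAICS, an enzyme of purine synthesis (0.885). Over 79 groups, without arsenic, cadmium, copper, lead and thiram at 25 µM, these values were 0.470, 0.703 and 0.399. Genes close to KRT6A included SFN (0.785) and AGTRAP (0.763), and those close to KRT18 included the glycolytic enzymes PGK1 (0.889) and TPI1 (0.866). Among the members KRT14 and KRT17 had r = 0.780, and 0.875 without those 5 groups. KRT16 and KRT17 had r = 0.679, KRT5 and KRT14 had 0.075, and KRT8 and KRT18 had 0.227. The groups of a plate share its libraries' handling and depth pattern, so these values are descriptions.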

How the data were processed

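RNA of MCF10A wells was sequenced by plexWell, and the deposited files hold raw counts per gene; per the submitters' processing notes, FastQC, MultiQC, STAR, featureCounts and GRCh38 were used, with no versions given. Members, related lists and the number-range split were chosen with earlier results of these data known. Each plate was fitted alone with edgeR 4.0.16 (R 4.3.3): genes with at least 10 counts in enough libraries and 15 in total, trimmed mean of M-values scaling, a quasi-likelihood test with a prior count of 2, and Benjamini-Hochberg adjustment over all genes (called under 0.05). All groups of a plate share one spread. Logs of single-library CPM used a pseudocount of 1. Alternatives were RLE scaling, DESeq2 1.42.0, no filter, a number-range term, each range or its controls alone, single chemicals, each replicate left out and the replicate number as a block. Same-numbered libraries deviated together in every pair (r over 0.1) for 4 of 21 chemicals; this check of the pairing rests on the data. The code was tested on simulated data. All members are named; of each related list, at most 4 called genes with the largest change and an average log2 CPM of at least 2; of genes most like a member, the first 3. Some genes and sequences that these rules name are not reported here.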

Additional observations from a re-analysis of the deposited data

Results flagged for a closer look

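Of 45 sets of values of a keratin in a group, 4 had a single library far from the others, where chance alone flags about 1 in 20. They come from 3 groups of 4 libraries. KRT14 under DDE at 25 µM was 467.4 CPM in replicate 1 and 68.02 to 113.7 in the others. KRT17 under PCB153 at 0.25 µM was 1820 CPM in replicate 3 and 115.8 to 254.2 in the others. KRT16 was high in the same library, at 70.85 CPM beside 4.486 to 7.624. KRT15 under thiram at 25 µM was 2.108 CPM in replicate 2 and 0 in the others.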

How the results depend on the processing

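Of 853 alternative values for 68 called or named results of the members, 764 kept direction and side of the threshold, 86 kept only the direction and 3 reversed. The reversals were KRT16 under copper at 25 µM within the high-numbered set (-0.217), and KRT17 under PCB153 at 0.25 µM within the low-numbered set (-0.4738) and without replicate 3 (-0.3585, where leaving out each replicate in turn gave up to 1.778). The cause was not tested. Of the 32 calls at 25 µM, 16 held under every alternative. The counts of member calls at 25, 2.5, 0.25 and 0.025 µM were 32, 8, 4 and 0. They became 49, 22, 19 and 9 with no filter on low counts. Within the low-numbered set they were 54, 26, 19 and 13, and within the high-numbered set 16, 15 and 7 at the 3 lower doses. With the number range as a term they were 13, 8 and 1 at the 3 lower doses. Without the end-numbered libraries of plate 2250-AT, picked after their values were seen, they were 13, 11 and 6 there. At 0.025 µM the count was 2 with DESeq2, 2 with the first and 3 with the last controls, and 1 with chemicals fitted alone. Leaving out single replicates gave 1 to 9 calls at 0.25 µM and 0 to 3 at 0.025 µM. Slopes went from 21 to 38 and solvent calls from 3 to 5 with no filter, and solvent calls to 5 with the number-range term. A plate on which an alternative was not run kept its main calls in these counts, as plate 2250-AT did for the number ranges. The shares of all genes called under the alternatives are not given here, so changes in these counts cannot be read as results about the keratins.

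With the replicate block the calls were 9 at 0.25 µM, 3 at 0.025 µM and 42 for slopes, again without the share of all genes. For 17 of the 21 chemicals not every same-numbered pair deviated together (r over 0.1), so pairing by number is not established there. The mean r of same-numbered pairs ranged from 0.01003 to 0.4852 over the 21 chemicals.

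As means of log2 CPM in place of summed CPM, the simple-to-basal difference from controls was 2.19 for arsenic, -0.22 for copper, 1.51 for DDE, 0.23 for thiram and, reversed, 0.706 for lead, where the sums gave 2.76, -1.03, 0.81, 0.76 and -0.033. The stress-to-basal difference was 2.40 for arsenic, 1.24 for copper, 0.21 for DDE and 1.03 for lead, where the sums gave 2.66, 0.37, 0.11 and 0.52. For lead the simple-to-basal difference was also positive without replicate 3 (0.113) or 4 (0.067), and ranged from -0.1725 to 0.1131 over the replicates left out. Depth limits KRT15, KRT16 and KRT6B most, since a few counts separate their values in shallow libraries.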
